A study of Mus musculus with 18 samples.

Results

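The genes that make cysteinyl leukotrienes and leukotriene B4 were followed across 3 cell populations sorted from the mouse trachea. The 10 genes were taken by name, by their place in the pathway, from the 26327 gene symbols of the count table. They cover release of arachidonate (Pla2g4a), the 5-lipoxygenase step (Alox5, Alox5ap), the terminal synthases (Ltc4s, Lta4h), export (Abcc1) and trimming of the peptide side chain (Ggt1, Ggt5, Dpep1, Dpep2). All 10 were found in the table.

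RNA was sequenced from brush cells (7 libraries), from EpCAM+ epithelial cells (7 libraries) and from CD45+ hematopoietic cells (4 libraries) of naive, untreated mice. Brush cells (tuft cells) are scarce cells that sense chemicals at the airway surface; they were sorted as CD45-, EpCAM+ and eGFP+. EpCAM+ cells were sorted as CD45- and EpCAM+, a gate that as worded does not exclude eGFP+ cells, and CD45+ cells were sorted on CD45, so that they are a mixture of leukocytes. Every library came from mice with the transgene Tg(RP23-268L19-EGFP)2Mik on the B6.Cg background, a bacterial artificial chromosome that drives eGFP from choline acetyltransferase (Chat) sequences, so EpCAM+ and CD45+ cells come from transgenic mice as brush cells do. The labels give neither the age of the mice nor the number of mice behind a library, and p-values therefore measure the spread between these libraries, which may be technical in part.

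Leukotrienes are lipid mediators made from arachidonic acid. Cytosolic phospholipase A2 releases arachidonate from membranes, and 5-lipoxygenase, helped by its membrane partner FLAP (encoded by Alox5ap), turns it into the unstable epoxide leukotriene A4. Leukotriene C4 synthase joins that epoxide to glutathione, which starts the cysteinyl leukotrienes known for airway constriction, vascular leak and type 2 inflammation, whereas leukotriene A4 hydrolase converts the same epoxide to leukotriene B4, a chemoattractant for leukocytes. Leukotriene C4 leaves the cell and is then trimmed to leukotrienes D4 and E4 by gamma-glutamyl transferases and dipeptidases. Mast cells, eosinophils and macrophages are the sources usually described.

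Library totals were 838328 to 6031711 counts in brush cells, 2442601 to 6087184 in EpCAM+ cells and 371652 to 7438791 in CD45+ cells, and nuclear-encoded ribosomal RNA genes took 22.65 to 60.9% of them in brush cells, 8.76 to 31.35% in EpCAM+ cells and 18.85 to 38.29% in CD45+ cells. Summed over 10 brush cell markers (Trpm5, Gnat3, Pou2f3 and others), levels were 8870 to 10400 CPM (counts scaled to a common library size) in brush libraries, 8.36 to 35.3 CPM in EpCAM+ libraries and 11.5 to 110 CPM in CD45+ libraries. The 9 markers of basal, club and ciliated cells summed to 499 to 3320 CPM in brush libraries, 25600 to 122000 CPM in EpCAM+ libraries and 299 to 1430 CPM in CD45+ libraries. Pan-leukocyte markers summed to 14.4 to 37.3 CPM in brush libraries, 0 to 3.21 CPM in EpCAM+ libraries and 5110 to 8910 CPM in CD45+ libraries, so the labelled populations carried their defining genes. Earlier work on these data had found 3 libraries apart from the rest of their group: brush replicate 4, EpCAM+ replicate 5 and CD45+ replicate 1. In these, transcripts under 1000 bases lay 1.49, 2.54 and 1.58 above their group's median on the log2 scale, and transcripts over 3000 bases at -0.33, -0.36 and -0.68. EpCAM+ replicates 4 and 7 and brush replicate 5 deviated the same way, with short transcripts at 0.80, 0.32 and 0.44 and long ones at -0.49, -0.26 and -0.17. Of the members, Ltc4s (628 bases) and Alox5ap (930 bases) have short transcripts, and values with and without these libraries are given where a result rests on them.

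Promoter sequence is shown for the genes whose levels separated the populations most and for the hydrolase that competes for the same substrate. Each window runs from 250 bases before to 50 bases after the RefSeq start (assembly GRCm38.p6), 5′ to 3′ on the gene's own strand. Alox5 lies at chr6:116461129-116461428 on the minus strand, Ltc4s at chr11:50238483-50238782 on the minus strand and Lta4h at chr10:93453146-93453445 on the plus strand. Capitals mark matches, on either strand, to the ETS core AGGAAG or the GC box GGGCGG; the POU octamer ATGCAAAT and the TATA box TATAAA were also searched.
Alox5: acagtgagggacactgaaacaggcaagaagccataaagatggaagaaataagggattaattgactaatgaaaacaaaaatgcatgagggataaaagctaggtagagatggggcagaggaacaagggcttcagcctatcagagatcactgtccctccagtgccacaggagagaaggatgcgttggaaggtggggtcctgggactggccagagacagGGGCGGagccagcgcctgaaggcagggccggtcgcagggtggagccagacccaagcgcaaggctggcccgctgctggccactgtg
Ltc4s: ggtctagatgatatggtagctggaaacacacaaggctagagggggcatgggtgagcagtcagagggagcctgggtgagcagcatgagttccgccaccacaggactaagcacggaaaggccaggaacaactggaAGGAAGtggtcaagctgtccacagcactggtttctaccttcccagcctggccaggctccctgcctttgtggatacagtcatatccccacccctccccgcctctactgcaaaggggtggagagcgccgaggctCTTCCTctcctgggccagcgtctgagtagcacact
Lta4h: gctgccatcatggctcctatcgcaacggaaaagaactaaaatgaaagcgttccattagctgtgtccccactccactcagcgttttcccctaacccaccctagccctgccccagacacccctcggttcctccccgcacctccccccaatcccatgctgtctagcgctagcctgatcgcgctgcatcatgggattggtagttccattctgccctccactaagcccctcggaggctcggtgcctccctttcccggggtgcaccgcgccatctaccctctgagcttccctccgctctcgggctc
The Alox5 window held 1 GC box, 35 bases before the start, a motif present in 35.7% of the 32851 windows of the same length. The Ltc4s window held the ETS core 117 bases before the start and again on the complementary strand 16 bases after it, a motif present in 35.4% of windows. Neither motif matched in the Lta4h window, and no window of these 3 held the octamer (1.74% of windows) or the TATA box (13.6%). The RefSeq start of Ltc4s lies 84 bases inside the gene as GENCODE vM21 draws it, so the 2 annotations place its promoter differently. A match is a run of letters in a window and was not tested for binding.

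Brush cells carried the genes of every step up to leukotriene C4, and 3 of these, Alox5, Alox5ap and Ltc4s, were close to 0 in EpCAM+ cells. Relative to EpCAM+ cells, 5 of the 9 members tested were higher in brush cells (Pla2g4a, Alox5, Alox5ap, Ltc4s and Ggt1), 1 was lower (Ggt5) and 3 did not pass the threshold (adjusted p below 0.05). Among all 13418 genes tested, 18.3% were called higher and 22.0% lower in the same comparison. The median log2 fold change was 1.65 over the members and -0.06 over all genes tested, and the libraries of the groups did not overlap for 6 members, as for 20.3% of all genes tested. Dpep1 did not pass the filter on low counts and was not tested. Ggt1 did not pass that filter in a fit without brush libraries, nor Ggt5 in a fit without EpCAM+ libraries. Each thus entered these counts through the group of this comparison where it was higher. Without the 3 libraries that stood apart, 5 members were called higher and 2 lower, Lta4h joining Ggt5, and the shares of all genes were 21.6% higher and 23.6% lower.

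**Figure D1:**
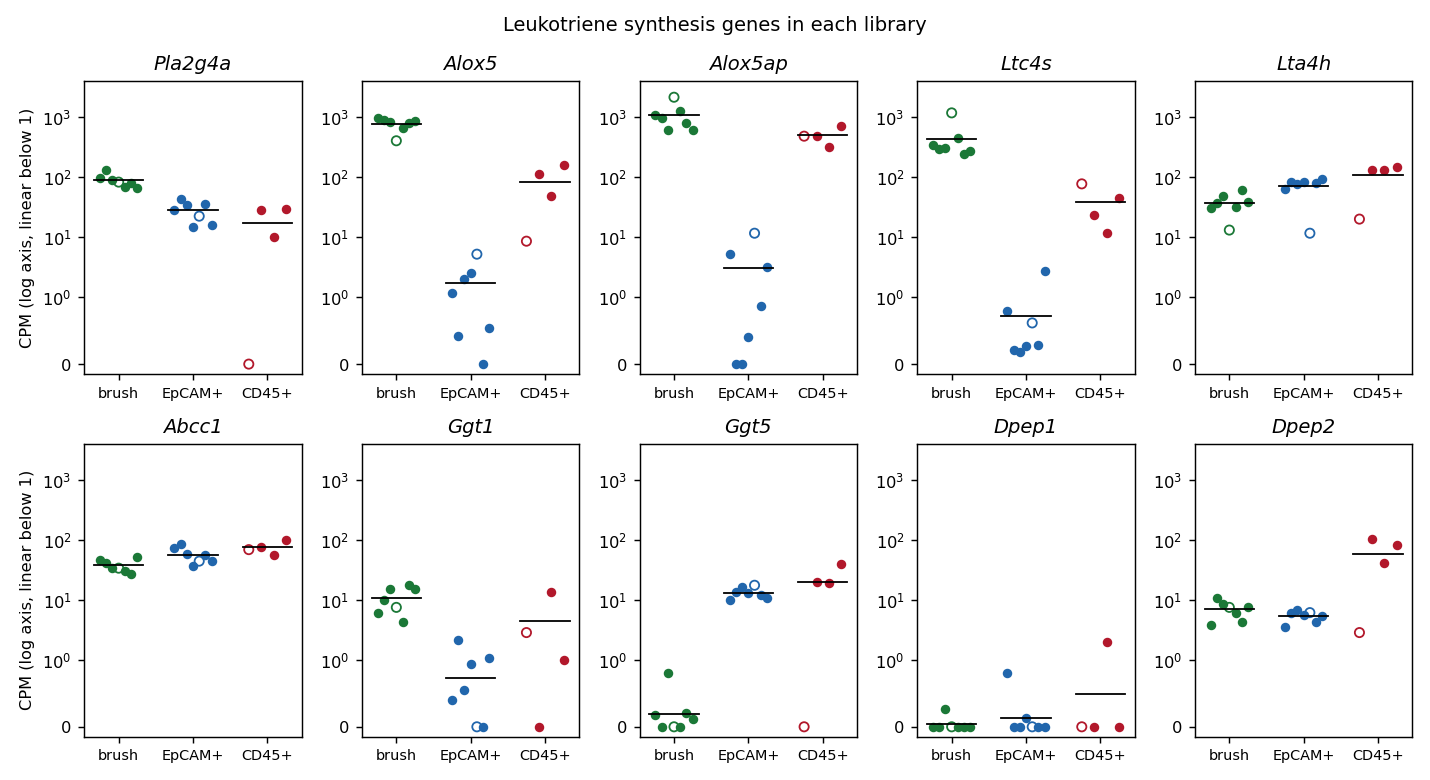
Level of each member in every library, in CPM on an axis that is logarithmic above 1 and linear below it. Each point is a library (7 brush, 7 EpCAM+, 4 CD45+), horizontal lines are group means and open circles mark brush replicate 4, EpCAM+ replicate 5 and CD45+ replicate 1; Alox5, Alox5ap and Ltc4s lie at 246 CPM or more in every brush library and at 11.7 CPM or less in every EpCAM+ library.

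Pla2g4a encodes cytosolic phospholipase A2 alpha, the enzyme that releases arachidonate on a calcium signal (GRCm38 chr1:149829618-149961290, minus strand). Its lowest, median and highest levels were 66.6, 83.0 and 132 CPM in brush libraries and 15.0, 28.9 and 44.0 CPM in EpCAM+ libraries, and the CD45+ libraries had 0, 28.9, 10.2 and 29.2 CPM. Every brush library lay above every other library, and EpCAM+ and CD45+ libraries overlapped. Brush cells averaged 88.5 ± 21.9 CPM and EpCAM+ cells 28.2 ± 10.9 CPM (SD, n = 7 for both), which gave a log2 fold change of 1.65 ± 0.37 (SE) with an adjusted p of 0.000839 in edgeR's quasi-likelihood test. Against CD45+ cells (17.1 ± 14.5 CPM, SD, n = 4) the log2 fold change was 2.22 ± 0.47 with an adjusted p of 0.000402 in the same edgeR test.

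Alox5, which encodes 5-lipoxygenase (chr6:116410077-116461178, minus strand), separated all 3 populations. Brush libraries ranged from 405 to 967 CPM with a median of 817, whereas EpCAM+ libraries ranged from 0 to 5.24 CPM with a median of 1.2. CD45+ libraries had 8.62, 113, 49.6 and 160 CPM. The lowest brush library was replicate 4 and the lowest CD45+ library replicate 1, both among the libraries that stood apart. That CD45+ value of 8.62 CPM rested on 3 counts. The highest EpCAM+ value, 5.24 CPM, rested on 17 counts in replicate 5, which also stood apart, so the gap between these 2 groups is narrow. Brush cells averaged 776 ± 188 CPM and EpCAM+ cells 1.72 ± 1.80 CPM (SD, n = 7 for both), a 442-fold difference in the edgeR fit (log2 fold change 8.79 ± 0.70, adjusted p = 1.07e-09). Relative to the CD45+ mean of 82.8 ± 67.1 CPM (SD, n = 4), brush cells were 9.14-fold higher (log2 fold change 3.19 ± 0.67, edgeR adjusted p = 0.000377). EpCAM+ cells were lower than CD45+ cells by a log2 fold change of -5.60 ± 0.65 (edgeR adjusted p = 2e-07), and of -6.36 without the 3 libraries that stood apart.

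Alox5ap, which encodes FLAP, the nuclear membrane protein that presents arachidonate to 5-lipoxygenase (chr5:149264767-149288153, plus strand), was abundant in both brush and CD45+ cells. Its brush levels were 611 CPM at the lowest, 975 CPM at the median and 2150 CPM at the highest, and its EpCAM+ levels 0, 0.865 and 11.7 CPM. The CD45+ libraries had 483, 490, 320 and 719 CPM, of which the highest overlapped the brush range. The brush mean of 1070 ± 530 CPM and the EpCAM+ mean of 3.06 ± 4.29 CPM (SD, n = 7 for both) differed by a log2 fold change of 8.54 ± 0.86 (edgeR adjusted p = 3.48e-08). EpCAM+ replicate 5 held 38 of the 69 EpCAM+ counts; the log2 fold change was 9.59 without it, 9.42 without the 3 libraries that stood apart and 10.09 with voom. Against the 503 ± 164 CPM of CD45+ cells (SD, n = 4) the brush level did not pass the test (log2 fold change 1.09 ± 0.75, edgeR adjusted p = 0.248), which does not show that the levels were alike; with only these 2 groups in the fit it was 1.08 with an adjusted p of 0.0352. Without replicate 4, the brush mean was 892 ± 259 CPM (SD over the remaining libraries). The antisense gene Gm19719 overlaps Alox5ap and had 59 counts over all libraries; reads of the 2 strands may not have been told apart, since the strand setting is not given in the sources used here.

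Ltc4s encodes leukotriene C4 synthase, which conjugates leukotriene A4 to glutathione (chr11:50236461-50238616, minus strand). Brush libraries had 246 CPM at the lowest, 302 CPM at the median and 1180 CPM at the highest; EpCAM+ libraries had 0.186, 0.288 and 2.70 CPM. The CD45+ libraries had 77.6, 23.2, 11.6 and 45.0 CPM, so the 3 populations did not overlap. With a brush mean of 441 ± 330 CPM and an EpCAM+ mean of 0.724 ± 0.899 CPM (SD, n = 7 for both), the fitted difference was 629-fold (log2 fold change 9.30 ± 0.68, edgeR adjusted p = 3.54e-10). EpCAM+ replicate 7 held 10 of the 19 EpCAM+ counts, and without it the log2 fold change was 10.17. Compared with CD45+ cells (39.3 ± 29.0 CPM, SD, n = 4), brush cells were 11.9-fold higher (log2 fold change 3.58 ± 0.65, edgeR adjusted p = 7.45e-05). The highest brush and the highest CD45+ library, replicates 4 and 1, were among those with raised short transcripts; whether that raised the Ltc4s level there was not tested. Without the 3 libraries that stood apart the brush mean was 319 ± 69.8 CPM and the CD45+ mean 26.6 ± 16.9 CPM (SD), and the log2 fold changes were 8.90 against EpCAM+ cells and 3.63 against CD45+ cells. Ltc4s also overlaps an antisense gene, Gm26542.

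**Figure D2:**
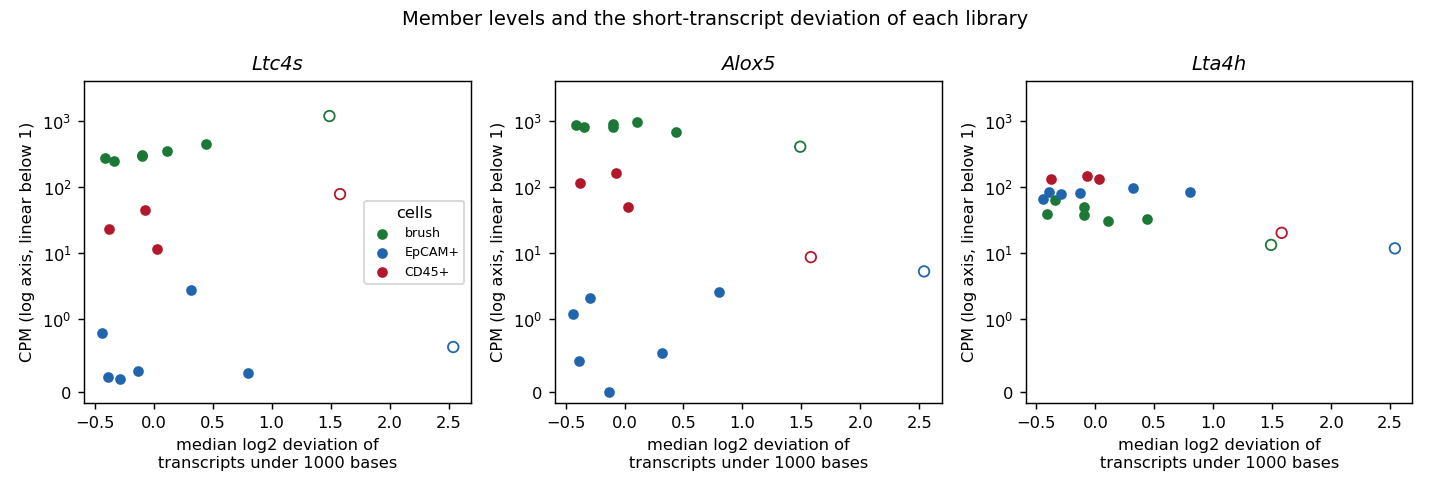
CPM of Ltc4s, Alox5 and Lta4h (vertical axes, logarithmic above 1 and linear below it) against the median log2 deviation of transcripts under 1000 bases from their group's median (horizontal axes), 1 point per library. Open circles are brush replicate 4, EpCAM+ replicate 5 and CD45+ replicate 1, which lie to the right at 1.49, 2.54 and 1.58; there brush and CD45+ Ltc4s is high, brush and CD45+ Alox5 is low and Lta4h is low in all 3.

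Lta4h encodes leukotriene A4 hydrolase, the enzyme of leukotriene B4 formation (chr10:93453411-93484875, plus strand), and it ran the other way. Lowest, median and highest levels were 13.2, 36.9 and 62.1 CPM in brush libraries and 11.7, 81.6 and 94.9 CPM in EpCAM+ libraries, and CD45+ libraries had 20.1, 131, 131 and 148 CPM. The lowest value of every group came from the library whose short transcripts were raised the most in that group. The brush mean was 37.5 ± 15.3 CPM and the EpCAM+ mean 70.9 ± 27.6 CPM (SD, n = 7 for both), and the log2 fold change of -0.90 ± 0.40 did not pass the threshold (edgeR adjusted p = 0.0766). Leaving out EpCAM+ replicate 5 alone gave -1.08 with an adjusted p of 0.00908 in edgeR, and leaving out the 3 libraries that stood apart gave -0.94 with an adjusted p of 0.000247. Against CD45+ cells (107 ± 58.7 CPM, SD, n = 4) brush cells were lower, with a log2 fold change of -1.53 ± 0.45 (edgeR adjusted p = 0.00747).

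**Figure D3:**
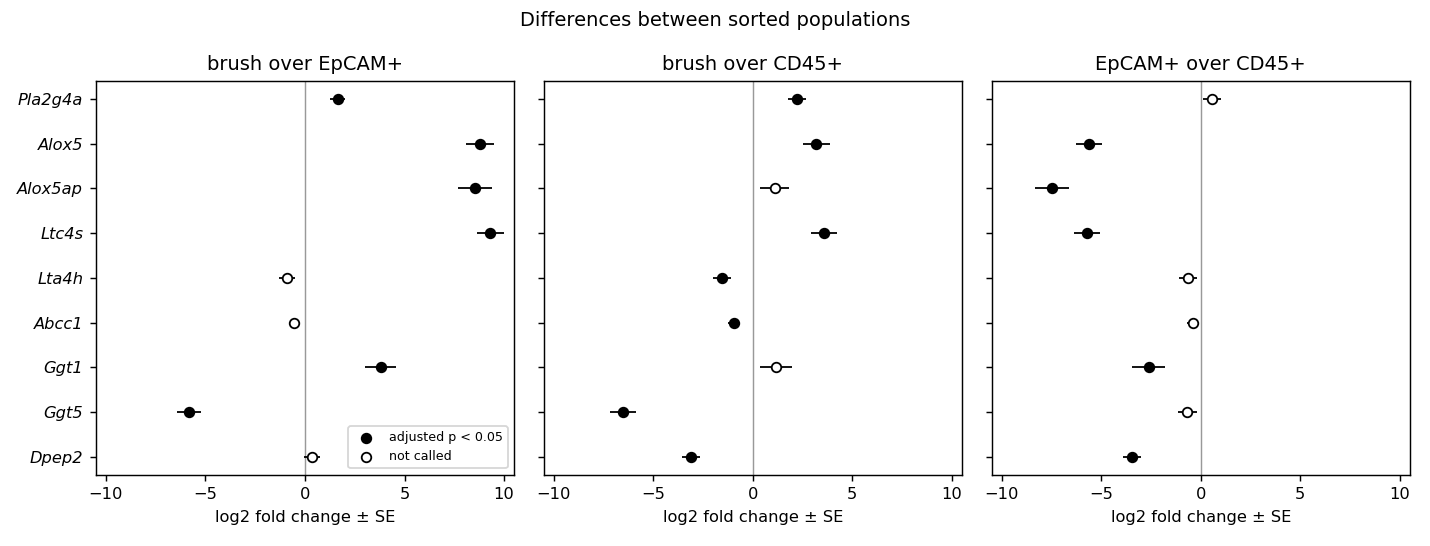
Log2 fold change ± SE (horizontal axes) of the 9 members tested, in pathway order from top to bottom, for brush over EpCAM+ cells, brush over CD45+ cells and EpCAM+ over CD45+ cells. Filled circles passed an adjusted p of 0.05 in edgeR's quasi-likelihood test and open circles did not; Alox5, Alox5ap and Ltc4s lie at 8.79, 8.54 and 9.30 in the brush over EpCAM+ panel, and Ggt5 at -5.82.

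Levels of different genes can be compared only per transcript length, for which TPM, a level corrected for transcript length, was used. Alox5ap averaged 1750 ± 345 TPM, Ltc4s 1090 ± 288 TPM and Alox5 462 ± 194 TPM in brush cells (SD, n = 7 each). By TPM, Alox5ap ranked between 29 and 62 among all genes in every brush library, Ltc4s between 43 and 102 and Alox5 between 160 and 657. Pla2g4a followed at 40.0 ± 17.4 TPM, Lta4h at 23.1 ± 12.3 TPM, Abcc1 at 11.6 ± 6.57 TPM and Ggt1 at 10.9 ± 5.19 TPM. The ranges of Pla2g4a and Lta4h overlapped between libraries, but Pla2g4a was higher in all 7 brush libraries taken one at a time, and Lta4h was higher than Abcc1 in 6 of 7. Abcc1 was higher than Ggt1 in 4 of 7, so their order is not settled. The order was another one in EpCAM+ cells, where Lta4h led at 33.9 ± 14.5 TPM, with Abcc1 at 12.8 ± 7.41 TPM and Pla2g4a at 12 ± 5.01 TPM (SD, n = 7). CD45+ cells had Alox5ap at 564 ± 189 TPM and then Ltc4s, Lta4h, Dpep2 and Alox5 at 65.2 ± 32.2, 44.0 ± 26.9, 35.0 ± 26.1 and 32.2 ± 23.0 TPM (SD, n = 4), which overlapped each other.

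**Figure D4:**
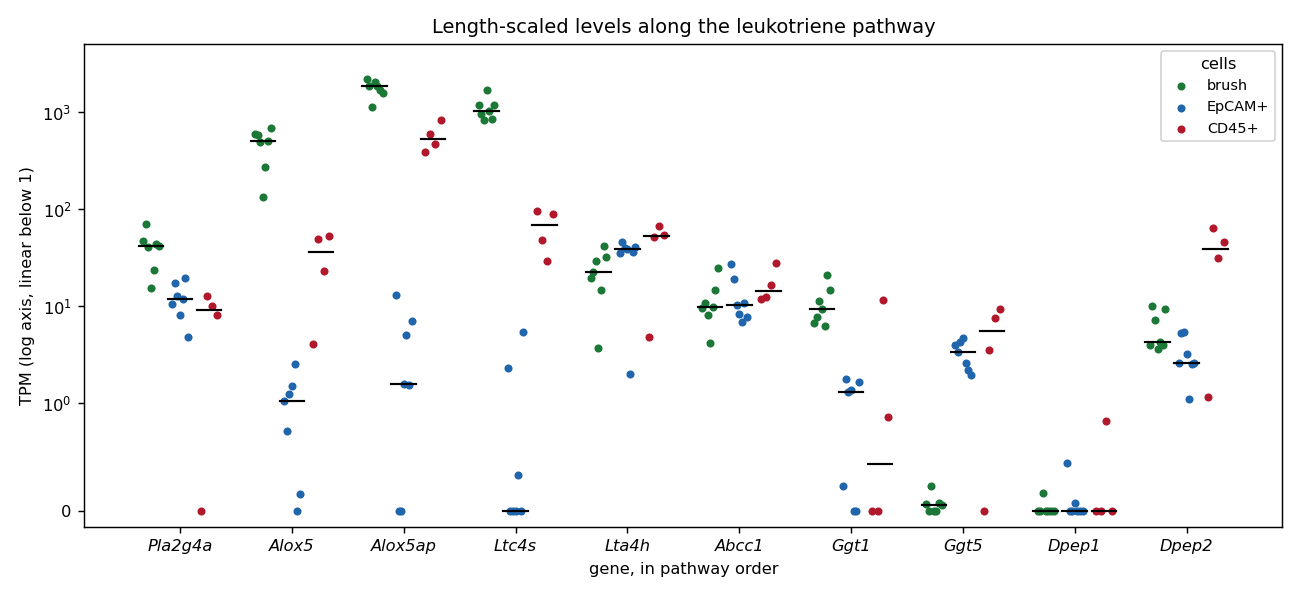
TPM of each member in every library (vertical axis, logarithmic above 1 and linear below it), with genes in pathway order on the horizontal axis and, for each gene, brush, EpCAM+ and CD45+ libraries from left to right. Points are libraries and short lines group medians; in brush cells Alox5, Alox5ap and Ltc4s stand above Lta4h and the later steps in every library.

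Because both terminal synthases act on leukotriene A4, their ratio was taken within each library, where scaling between libraries drops out. The ratio of Ltc4s to Lta4h TPM was 60.7, 42.2, 28.9, 454, 71.1, 20.2 and 36.9 in brush replicates 1 to 7. EpCAM+ libraries had ratios from 0 to 0.167, and CD45+ libraries 19.8, 0.930, 0.435 and 1.66. Thus Ltc4s exceeded Lta4h in every brush library and in no EpCAM+ library. The values 454 and 19.8 belong to brush replicate 4 and CD45+ replicate 1, and without the libraries that stood apart the medians were 39.5 in brush cells, 0 in EpCAM+ cells and 0.930 in CD45+ cells. The EpCAM+ ratios of 0 are libraries where Ltc4s had few counts and a TPM of 0. Taken from counts divided by transcript length, the EpCAM+ ratios were 0.0146 to 0.263. These ratios describe RNA and were not tested.

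**Figure D5:**
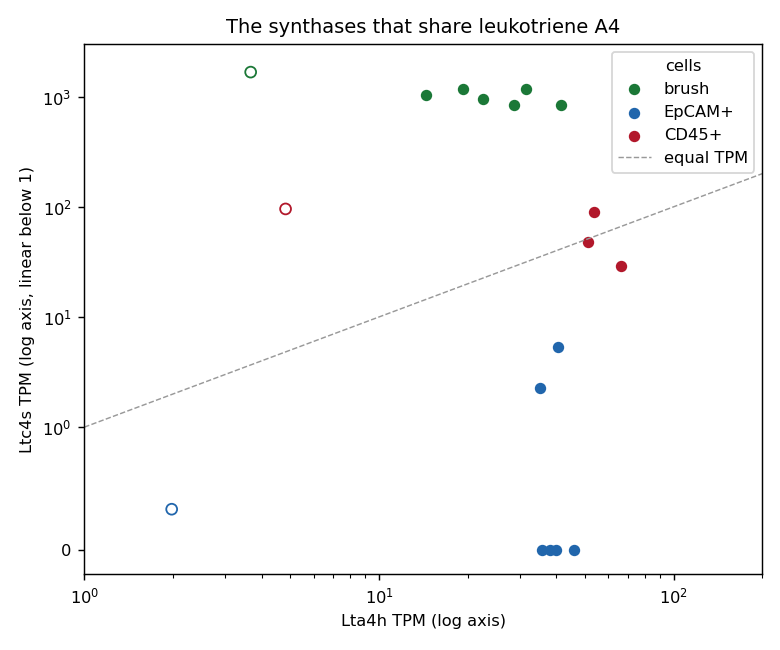
Ltc4s TPM (vertical axis, logarithmic above 1 and linear below it) against Lta4h TPM (horizontal axis, logarithmic), 1 point per library, with the dashed line at equal TPM and open circles for brush replicate 4, EpCAM+ replicate 5 and CD45+ replicate 1. All brush libraries lie above the line by 20.2 times or more, all EpCAM+ libraries below it, and CD45+ libraries on both sides.

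Abcc1, which encodes the transporter MRP1 that exports leukotriene C4 (chr16:14361558-14475737, plus strand), was measured in all populations. It had 27.5 to 52.2 CPM in brush libraries, 36.2 to 85.8 CPM in EpCAM+ libraries and 69.0, 76.3, 55.7 and 98.8 CPM in CD45+ libraries. The brush libraries lay below every CD45+ library, and they overlapped the EpCAM+ libraries. The brush mean of 38.1 ± 9.16 CPM (SD, n = 7) and the CD45+ mean of 74.9 ± 18 CPM (SD, n = 4) gave a log2 fold change of -0.97 ± 0.28 (edgeR adjusted p = 0.00678), and against the 56.9 ± 17.5 CPM of EpCAM+ cells (SD, n = 7) it was -0.57 ± 0.25 (adjusted p = 0.0682). The call against CD45+ cells was lost when libraries were scaled by totals only (adjusted p = 0.113).

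Ggt1 and Ggt5 encode gamma-glutamyl transferases that turn leukotriene C4 into leukotriene D4; they are neighbours on chromosome 10 (75561604 to 75586200 and 75589340 to 75617200, plus strand), 3139 bases apart. Ggt1 had 4.35 to 17.7 CPM in brush libraries and 0 to 2.12 CPM in EpCAM+ libraries, while CD45+ libraries had 2.87, 0, 13.8 and 1.02 CPM. In Ggt5 the order was turned round, with 0 to 0.813 CPM in brush libraries, 10 to 17.6 CPM in EpCAM+ libraries and 0, 19.9, 19.5 and 39.1 CPM in CD45+ libraries. For both genes, brush and EpCAM+ libraries did not overlap. The Ggt1 mean was 10.9 ± 5.27 CPM for brush cells and 0.729 ± 0.743 CPM for EpCAM+ cells (SD, n = 7 for both; log2 fold change 3.8 ± 0.76, edgeR adjusted p = 0.00028). The Ggt5 mean was 0.189 ± 0.289 CPM for brush cells and 13.3 ± 2.81 CPM for EpCAM+ cells (log2 fold change -5.82 ± 0.62, edgeR adjusted p = 7.39e-08), with 6 counts in all brush libraries together against 412 in EpCAM+ libraries. Brush replicate 3 held 3 of the 6, and without it the log2 fold change was -6.55 against EpCAM+ cells and -7.19 against CD45+ cells. Ggt5 was also lower in brush than in CD45+ cells (19.6 ± 16.0 CPM, n = 4; log2 fold change -6.50 ± 0.65, edgeR adjusted p = 1.81e-08).

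The CD45+ level of Ggt1 rested on replicate 3, which held 126 of its 131 counts in that group. With all libraries, Ggt1 was lower in EpCAM+ than in CD45+ cells (log2 fold change -2.61 ± 0.83, edgeR adjusted p = 0.0134). Without CD45+ replicate 3 that value was 0.23 (adjusted p = 0.899), and brush over CD45+ became 4.01 (adjusted p = 0.00393) in place of 1.18 ± 0.81 (adjusted p = 0.246). Voom gave 2.42 for brush over CD45+ (adjusted p = 0.0228) with all libraries. The same library held all 18 CD45+ counts of Dpep1.

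Dpep1 and Dpep2 encode membrane dipeptidases that cleave leukotriene D4 to leukotriene E4. Dpep1 (chr8:123186242-123201812, plus strand) was close to undetected, with 1 count over all brush libraries, 3 over EpCAM+ libraries and 18 over CD45+ libraries. Dpep2 (chr8:105984944-105991759, minus strand) had 3.81 to 10.9 CPM in brush libraries, 3.61 to 6.87 CPM in EpCAM+ libraries and 2.87, 104, 41.4 and 82.5 CPM in CD45+ libraries. CD45+ replicate 1, whose value rested on 1 count, lay below every other library. The other CD45+ libraries lay above all brush and EpCAM+ libraries. Brush cells (6.98 ± 2.51 CPM, n = 7) were lower than CD45+ cells (57.6 ± 44.7 CPM, SD, n = 4) by a log2 fold change of -3.11 ± 0.45 (edgeR adjusted p = 3.87e-06) and did not pass the test against EpCAM+ cells (5.46 ± 1.14 CPM, n = 7; 0.34 ± 0.41, adjusted p = 0.546). Without the 3 libraries that stood apart, the log2 fold change of Dpep2 for brush over CD45+ cells was -3.41. Dpep2 overlaps Dus2 on the other strand, which had 1104 counts over all libraries.

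Relative to CD45+ cells, 3 of the 9 members tested were higher in brush cells (Pla2g4a, Alox5 and Ltc4s) and 4 were lower (Lta4h, Abcc1, Ggt5 and Dpep2), where 23.4% of all genes tested were called higher and 22.4% lower. The median log2 fold change was 1.09 over the members and 0.05 over all genes tested, and groups did not overlap for 4 members, beside 30.5% of all genes tested. EpCAM+ cells had 5 members lower than CD45+ cells (Alox5, Alox5ap, Ltc4s, Ggt1 and Dpep2) and 0 higher, beside 18.1% and 22.5% of all genes tested. The 0 is edgeR's count at an unadjusted p under 0.05 as well, and DESeq2 and voom also gave 0. Their median log2 fold change was -2.61, against 0.08 over all genes, and 3 members did not overlap, beside 27.2% of all genes tested. At 3 of 9 this is near the share over all genes. In a fit of EpCAM+ and CD45+ libraries alone, Ggt1 did not pass the filter on low counts. Ggt5 did not pass it in a fit of brush and CD45+ libraries alone. Each thus entered the count of that comparison through the group outside it. The comparisons share libraries, so their values are given side by side and not as independent results. Without the 3 libraries that stood apart, the counts were 3 higher and 4 lower against CD45+ cells for brush cells, and 0 higher and 7 lower for EpCAM+ cells, the added members being Lta4h (log2 fold change -0.74) and Ggt5 (-1.02). In that fit, 25.8% of all genes were higher and 25.9% lower in brush than in CD45+ cells, and 23.4% were higher and 21.9% lower in EpCAM+ than in CD45+ cells.

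Markers of the leukocytes that usually make leukotrienes were looked at beside these results. The macrophage and dendritic cell list (10 genes) summed to 14.4 to 46.3 CPM in brush libraries, 5.93 to 23.4 CPM in EpCAM+ libraries and 2670 to 10900 CPM in CD45+ libraries. Of 8 mast cell markers, 6 did not reach any count in brush libraries, among them the protease gene Cpa3; the brush sum of 102 to 197 CPM was mostly Kit, a receptor tyrosine kinase, at 150 ± 36.3 CPM (SD, n = 7). The mast cell sum was 25.3 to 59.0 CPM in EpCAM+ libraries and 1050, 194, 401 and 906 CPM in CD45+ libraries. Neutrophil markers reached at most 0.640 CPM in brush libraries, and eosinophil and basophil markers at most 3.84 CPM; the CD45+ sums were 118 to 537 CPM and 11.5 to 62.8 CPM. Brush levels of Alox5 and Ltc4s exceeded those of every CD45+ library. The pan-leukocyte sum of brush libraries was 37.3 CPM at most. On average most of that sum was Ptprc, the gene that encodes CD45, which had counts in every brush library. The part of leukocytes in the brush levels was not tested. Among CD45+ libraries, markers of T, NK and innate lymphoid cells summed to 1660, 119, 909 and 205 CPM. Those of macrophages and dendritic cells summed to 3930, 6340, 2670 and 10900 CPM. Alox5 was highest in the library with the highest macrophage sum. Its lowest level was 8.62 CPM in replicate 1, on 3 counts, and not in replicate 3 (49.6 CPM), which had the lowest macrophage sum. The part of this mixture in the levels was not tested. In bulk samples, fewer cells of a type and less RNA per cell cannot be told apart.

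In EpCAM+ cells, the levels of Alox5, Alox5ap and Ltc4s were 0.221%, 0.286% and 0.164% of those in brush cells. The 10 brush markers stood at 0 to 0.998% of their brush level in the same libraries, for example Trpm5 at 0.0445%, Avil at 0.219% and Dclk1 at 0.371%. Above that range were Ggt1 at 6.66%, Pla2g4a at 31.9%, Dpep2 at 78.2%, Abcc1 at 149%, Lta4h at 189% and Ggt5 at 7040%; Dpep1, with 1 and 3 counts, was too low to compare. The part of eGFP+ cells within the EpCAM+ gate was not tested.

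The other genes of the pathway were followed in 6 lists. Receptor counts were low in brush and EpCAM+ cells. Of 6 leukotriene receptor genes, 2 passed the filter on low counts, both through their CD45+ levels. Both were called lower in brush than in EpCAM+ cells, beside 22.0% of all genes tested. Since the filter chose these 2 by a group outside the comparison, the count does not describe the receptors as a set. Cysltr1, a receptor for leukotriene D4, had 2 counts in brush libraries, 30 in EpCAM+ libraries and 983 in CD45+ libraries, a depth-scaled ratio of brush to EpCAM+ of 0.0685 (95% counting interval 0.00793 to 0.270). Ltb4r1, the high-affinity leukotriene B4 receptor, had 2 counts in brush libraries, 24 in EpCAM+ libraries and 1979 in CD45+ libraries, and a ratio of 0.0857 (0.00981 to 0.345). The other receptors did not pass the filter. Cysltr2 ran the other way, with 15 counts in brush libraries and 1 in EpCAM+ libraries, a depth-scaled ratio of 15.4 (2.37 to 649) that no model tested. Ltb4r2 had 9 counts in brush libraries and 84 in EpCAM+ libraries, Oxgr1 had 1 and 2, and Gpr17 had 0 and 1. In CD45+ cells Cysltr1 averaged 58.9 ± 39.7 CPM and Ltb4r1 106 ± 61.3 CPM (SD, n = 4).

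Microsomal glutathione transferases are relatives of leukotriene C4 synthase, and Mgst2 can also make leukotriene C4. Of the 3, Mgst1 was lower in brush cells (126 ± 75.8 CPM) than in EpCAM+ cells (300 ± 175 CPM; SD, n = 7 for both; log2 fold change -1.27 ± 0.35, edgeR adjusted p = 0.00485). Mgst2 had a log2 fold change of -1.44 ± 0.60 (adjusted p = 0.0592) and Mgst3 0.24 ± 0.49 (adjusted p = 0.736). Leukotriene B4 is inactivated by Ptgr1, also known as leukotriene B4 hydroxydehydrogenase, and by omega-hydroxylases of the Cyp4f family. Of 9 genes in that list 7 were tested. In brush cells 3 were called lower than in EpCAM+ cells and 0 higher, beside 22.0% and 18.3% of all genes tested. The 3 were Ptgr1 (log2 fold change -5.13, from a brush mean of 2.66 ± 1.80 CPM and an EpCAM+ mean of 82.6 ± 38.2 CPM), Cyp4f15 (-3.72) and Cyp4f39 (-1.89). Cyp4f15 had 13 counts in brush libraries, 211 in EpCAM+ libraries and 1 in CD45+ libraries. Its EpCAM+ level, the higher side of this comparison, is thus what made it a tested gene. Cyp4f18, the hydroxylase of mouse neutrophils, had 3 counts in brush libraries, 8 in EpCAM+ libraries and 3922 in CD45+ libraries. It was among the 7 tested only through its CD45+ level. Cyp4f16 (log2 fold change 0.69, edgeR adjusted p = 0.198), Cyp4f17 (0.88, adjusted p = 0.121) and Cyp4f13 (-0.18, adjusted p = 0.706) were not called. Cyp4f40 was not tested and ran the other way, with 64 counts in brush libraries and 14 in EpCAM+ libraries. Its depth-scaled ratio was 4.7 (counting interval 2.61 to 9.07). The lower calls thus do not describe every gene of this list.

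Among 9 further exporters and peptidases, 6 were tested, with 1 called higher and 3 lower, beside 18.3% and 22.0% of all genes tested. Abcc5, an organic anion exporter, was higher in brush cells (34.8 ± 8.58 CPM) than in EpCAM+ cells (8 ± 3.49 CPM; log2 fold change 2.12 ± 0.29, edgeR adjusted p = 3.03e-06), and 3 were lower: the aminopeptidases Anpep (-5.17) and Lap3 (-1.27) and the exporter Abcc3 (-1.03). Without the 3 libraries that stood apart, 5 of this list were lower, where 23.6% of all genes were, against 22.0% with them. The list of 5-lipoxygenase partners and kinases had 13 of 14 genes tested, 2 higher (15.4%) and 3 lower (23.1%). These shares are near the 18.3% and 22.0% of all genes tested. Both higher calls were genes of calcium/calmodulin-dependent kinase II, which phosphorylates 5-lipoxygenase: Camk2b had a brush mean of 159 ± 17.0 CPM and an EpCAM+ mean of 1.89 ± 0.559 CPM (log2 fold change 6.34 ± 0.32, edgeR adjusted p = 2.14e-12) and Camk2d a brush mean of 78.0 ± 30.5 CPM and an EpCAM+ mean of 9.93 ± 4.21 CPM (3.00 ± 0.34, adjusted p = 1.58e-07). Of the same family, Camk2g had a log2 fold change of -0.58 ± 0.26 (adjusted p = 0.0798) and Camk2a was not tested. Cotl1, an actin-binding protein that also binds 5-lipoxygenase, was lower in brush cells (4.96 ± 1.56 CPM) than in EpCAM+ cells (64.8 ± 24.4 CPM; -3.71 ± 0.31, edgeR adjusted p = 2.33e-09), as were the peroxidase gene Gpx1 (-1.69) and the kinase gene Mapkapk3 (-1.13). This list, too, had 5 lower without the libraries that stood apart, beside the same 23.6% of all genes.

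Genes that put arachidonate into phospholipids and take it out again moved in both directions. Of 19 genes 13 were tested. The calls were 5 higher (38.5%) and 5 lower (38.5%), beside 18.3% and 22.0% of all genes tested. Higher in brush cells were Pla2g4f (17.4 ± 8.25 CPM, EpCAM+ cells 1.36 ± 1.46 CPM, log2 fold change 3.73), a relative of Pla2g4a; Pla2g16 (181 ± 49.1 CPM, EpCAM+ cells 27.1 ± 18.4 CPM, 2.73), a phospholipase of the HRASLS family; and Acsl4 (131 ± 36.7 CPM, EpCAM+ cells 37.1 ± 13.1 CPM, 1.83), the acyl-CoA synthetase that prefers arachidonate. Lower were the lysophosphatidylcholine acyltransferases Lpcat1 (-3.65) and Lpcat2 (-3.02) and the synthetase Acsl3 (-1.73). Of the other acyltransferases of that family, Lpcat4 was higher (1.27, edgeR adjusted p = 0.0114) and Lpcat3 did not pass the test (-0.07, adjusted p = 0.865). The other 6 genes of this list did not pass the filter on low counts.

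The genes whose levels most resembled those of the first 4 members over the 18 libraries were named by the Pearson correlation of log2 CPM, as a description that reflects mainly the difference between the groups. Nearest to Alox5 were Cd300lf (r = 0.975), Ap1s2 (0.970) and Etv6 (0.967). Cd300lf had 8938 counts in brush libraries, 0 in EpCAM+ libraries and 478 in CD45+ libraries, at least 3060-fold higher in brush than in EpCAM+ cells when 3 counts over the group are taken as the floor. Alox5ap was most like Inpp5d (0.969), Pstpip1 (0.969) and Fyb (0.968), 3 genes with 3, 30 and 8 counts in EpCAM+ libraries and high levels in both other groups: Inpp5d had 244 ± 30.1 CPM in brush and 180 ± 53.9 CPM in CD45+ cells. Ltc4s was most like Rgs2 (0.976), Pik3r5 (0.976) and Rasgrf2 (0.975), of which Pik3r5 had a mean of 869 ± 188 CPM over brush, 0.566 ± 1.03 CPM over EpCAM+ and 87.5 ± 29.9 CPM over CD45+ libraries. For Pla2g4a, Wfs1 (0.967), Mocos (0.958) and Stk38l (0.956) came first, and Stk38l had a mean of 117 ± 20.8 CPM over brush, 19.0 ± 8.25 CPM over EpCAM+ and 19.8 ± 14.3 CPM over CD45+ libraries.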

How the data were processed

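Gene counts, expected counts and TPM were available for 18 libraries. The authors deposited a table of raw read counts for 26327 gene symbols, and per the file headers an RSEM table of expected counts and TPM for each library. Per the submitters' processing notes the tools included STAR 2.4.2a, RSEM 1.2.21, featureCounts and DESeq2, with build mm10; the sources used here give neither strand setting nor annotation. Groups came from the labels. The members, lists, rule for named genes and alternatives were chosen with earlier results of these data known.

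The deposited counts entered edgeR 4.0.16 (quasi-likelihood F test in R 4.3.3; TMM scaling; filterByExpr by group, keeping 13418 genes and dropping 12909), all libraries in 1 fit with group as the only term, Benjamini-Hochberg adjustment over all genes tested, and a call at adjusted p below 0.05. The script was tested on simulated data. SE is the size of the log2 fold change over the root of F. CPM is counts scaled to the TMM library size; TPM, from the authors' RSEM tables, served for comparing genes. Named genes were all members, up to 3 called genes per direction and list with the largest change, and the 3 genes most correlated with each of Pla2g4a, Alox5, Alox5ap and Ltc4s (prior count 2); genes outside this rule are named for low counts, missed thresholds or as relatives of a named gene and were chosen after their values were seen. The comparison of short and long transcripts was chosen after seeing the data. No pair of libraries in a group agreed within sampling noise (lowest chi-square per degree of freedom 6.11). Coordinates are from GENCODE vM21 (GRCm38), promoters from RefSeq (GRCm38.p6). Alternatives were other scalings, filters and tools (DESeq2 1.42.0, limma 3.58.1 voom), RSEM expected counts rounded to whole numbers, a replicate block, and leaving out libraries. Counting intervals and floors cover counting error only.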

Additional observations from a re-analysis of the deposited data

Results flagged for a closer look

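In 11 of the 33 groups of values looked at, 1 library lay far from the others of its group. Chance flags about 1 group in 20, but that rate does not hold where counts are few. This applies to the flags of Dpep1, of Ggt5 in brush cells and of Ltc4s in EpCAM+ cells, which had 19 counts in all. Alox5ap in brush replicate 4 was high at 2150 CPM, with the next library at 1250 CPM. Ltc4s was high in the same library at 1180 CPM (next 443 CPM), and so was its ratio of Ltc4s to Lta4h TPM at 454 (next 71.1). That ratio was also high in CD45+ replicate 1 at 19.8 (next 1.66), where Lta4h was low at 20.1 CPM (next 131 CPM). Lta4h was low in EpCAM+ replicate 5 at 11.7 CPM (next 64.9 CPM). These 3 libraries (brush replicate 4, CD45+ replicate 1 and EpCAM+ replicate 5) are the ones with short transcripts raised the most in their group, whose part in these values was not tested. Ltc4s was high in EpCAM+ replicate 7 at 2.70 CPM (next 0.802 CPM), a library with short transcripts at 0.32 on the log2 scale. Ggt5 in brush replicate 3 stood at 0.813 CPM (next 0.213 CPM). Dpep1 stood at 0.271 CPM in brush replicate 3, 0.802 CPM in EpCAM+ replicate 1 and 1.97 CPM in CD45+ replicate 3, against 0, 0.135 and 0 CPM in the next library.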

How the results depend on the processing

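Members called lower in brush than in EpCAM+ cells numbered 1 in the main analysis, 3 with DESeq2, 3 without ribosomal RNA genes, 2 with only the 2 groups in the fit, 2 without the 3 libraries that stood apart, and 1 to 3 when each library was left out in turn; the added members were Lta4h, Abcc1 or both. Of all genes, 22.0% were lower in the main analysis, 23.7% with DESeq2, 24% without ribosomal RNA genes, 22.4% with only the 2 groups, 23.6% without the 3 libraries and 20.1 to 23.2% when each library was left out. Ggt1 in EpCAM+ over CD45+ cells ranged from -3.11 to 0.23 over its alternatives and turned its direction only without CD45+ replicate 3 (0.23); it lost its call with voom (-1.74, adjusted p = 0.188), RSEM expected counts (-2.12, adjusted p = 0.0596) and the replicate block (-1.73, adjusted p = 0.243). Alox5, Alox5ap, Ltc4s, Pla2g4a and Ggt1 kept their calls against EpCAM+ cells in all 30 alternatives. Same-numbered deviations correlated at -0.07 to 0.24 between brush and EpCAM+ cells, and 2 of 7 brush libraries matched their own number best. Such correlations cannot show whether libraries of the same number shared mice or a sort, so pairing is not settled. With the replicate block, members called lower in EpCAM+ than in CD45+ cells numbered 4 in place of 5, and the other member counts were the same. Another scaling moved the median of all genes by up to 0.19 (library totals, brush over CD45+). Depth limits Dpep1, Ggt5 in brush cells and Ltc4s in EpCAM+ cells.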
